A study of Homo sapiens with 14 samples.

Results

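The genes described here are 42 genes of the cytoskeleton and its motors, from the kinesins and dynein that carry cargo along microtubules to actin and the proteins that cap, branch and extend its filaments. They were chosen by name and function, with earlier results of these data known. Their C-to-U edit sites and edit clusters were taken from 14 libraries wherever a site lay on the strand and within the Gencode span of one of the genes. At least 1 site was found in 41 of the 42 genes, of 16708 genes with a site on their strand, and the 41 genes held 1912 of all 394915 sites and 1519 of all 208672 clusters. The exception was PFN1, which encodes the actin monomer binding protein profilin and had 0 sites in all libraries.

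The libraries came from HEK293T cells fixed in methanol. These cells descend from human embryonic kidney, carry the SV40 large T antigen and appear in the labels also as HEK293XT. In INSCRIBE, an antibody is bound to its protein in fixed cells, and a recombinant fusion of the cytidine deaminase APOBEC1 with a nanobody that recognises the antibody then edits cytosines of nearby RNA. For either amount of total RNA, 1 ng or 100 pg, there were 3 RBFOX2 libraries (antibody against RBFOX2 and enzyme), 1 Enzyme-only library (enzyme without the antibody) and 3 Buffer-only libraries (neither). Replicates were separate slides of the same line and are called technical by the study, so p-values measure technical spread only, and the single Enzyme-only library of each input has no replicate check.

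Cytoskeletal filaments give cells their shape and carry their traffic. Microtubules are polymers of alpha and beta tubulin along which kinesins and dynein walk, actin filaments are nucleated, capped and elongated by separate sets of regulators and pulled on by myosins, and septins and spectrins form scaffolds beneath the membrane. RBFOX2 is a splicing regulator that recognises UGCAUG in RNA and binds introns as well as 3′UTRs. The preferred targets of APOBEC1 are cytosines with A or U on their 5′ side.

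The following stretches of 30 bases, all on the RNA strand of hg38 and written 5′ to 3′ with T for U, are shown because edit sites of RBFOX2 libraries gathered around the motif in them. Because they were picked on RBFOX2 sites, their contrast with the controls is partly set by that choice. Capitals mark TGCATG and each cytosine that was an edit site in at least 2 of the 6 RBFOX2 libraries. The first 3 lie in the 3′UTR of ENAH on the minus strand of chromosome 1, at chr1:225496726-225496755, chr1:225496868-225496897 and chr1:225496937-225496966. The others lie in the 3′UTRs of MYL12B at chr18:3278010-3278039 and MAP1B at chr5:72208499-72208528, both on the plus strand, and of KIF5B at chr10:32009049-32009078 on the minus strand, and in the coding sequence of CAPZA1 at chr1:112659048-112659077 on the plus strand.
ENAH, first: ttCtcagttaCcTGCATGaataaataatga
ENAH, second: tgcagaCagtaaTGCATGtcacactaatat
ENAH, last: tttttagatttaTGCATGtggaCattttta
MYL12B: catagaacctgtTGCATGcaaCttagtttC
MAP1B: ccctgagccctgTGCATGctttctcagtct
KIF5B: tttaagttaactTGCATGttgtaaatgcgt
CAPZA1: acagaCtattatTGCATGtattgaaagcca

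Another 3 stretches, in the 3′UTRs of CAPZA2 at chr7:116918528-116918557, ACTR2 at chr2:65269403-65269432 and SEPTIN2 at chr2:241352254-241352283 (all plus strand), are shown as examples, chosen after their values were seen, of places where clusters of all 3 RBFOX2 libraries at 1 ng met and no TGCATG lies in the printed bases. Here capitals mark only the cytosines that were edit sites in at least 2 RBFOX2 libraries.
CAPZA2: tttttttcttgtgaCagttaCgcaaatcag
ACTR2: atttggcaggttttCttctacttgtgctct
SEPTIN2: tttgatttaactgaCttaacaactgactaa

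Within 50 nt of the middle of these stretches the RBFOX2 libraries at 1 ng held 8 sites in CAPZA2, 6 in ACTR2 and 6 in SEPTIN2. Enzyme-only held 2 sites in SEPTIN2 and 0 in the others, and Buffer-only 0 in all 3.

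The libraries differed in their number of sites. At 1 ng the RBFOX2 libraries held 40162 to 42589 sites, the Enzyme-only library 38007 and the Buffer-only libraries 20330 to 22543. At 100 pg these numbers were 26554 to 27437, 24829 and 18650 to 21140. The Buffer-only sites are the background of the assay, since these cells received no enzyme. Whether the library kit preserves strand is not given in the sources used here. A site needs reads, and in bulk libraries fewer cells with a transcript and less of the transcript per cell cannot be told apart.

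At 1 ng the 42 genes together held more sites in RBFOX2 than in Buffer-only, and no library of one group reached the other. The 3 RBFOX2 libraries held 253, 234 and 287 sites, the Enzyme-only library 206, and the Buffer-only libraries 55, 71 and 58. The means were 258 ± 26.9 (SD, n = 3) and 61.3 ± 8.50 (SD, n = 3), a ratio of 4.21, beside 2.64 over the gene-strand sites of all genes. The genes compared differ in coverage. In RBFOX2 at 1 ng the median at a site was 47 to 53 reads in the 42 genes and 21 to 22 in other genes. The part of coverage in the ratios was not tested. The Enzyme-only library stood at a ratio of 3.36 to the Buffer-only mean, beside 2.30 over all genes. The number of sites in these genes was therefore already several times the background when the enzyme was added without the antibody, and the single Enzyme-only value lay below every RBFOX2 value.

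With 100 pg the difference was smaller but the groups were again apart. RBFOX2 libraries held 147, 147 and 127 sites, the Enzyme-only library 101 and Buffer-only libraries 96, 67 and 63. The ratio of means was 1.86 for the 42 genes and 1.63 over all genes, and for Enzyme-only it was 1.34 and 1.43. On the opposite strand of the same gene spans there was no such separation. At 1 ng RBFOX2 libraries held 79, 69 and 72 opposite-strand sites, the Enzyme-only library 87 and Buffer-only libraries 67, 86 and 75, a ratio of 0.965 between RBFOX2 and Buffer-only. At 100 pg this ratio was 0.948.

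**Figure D1:**
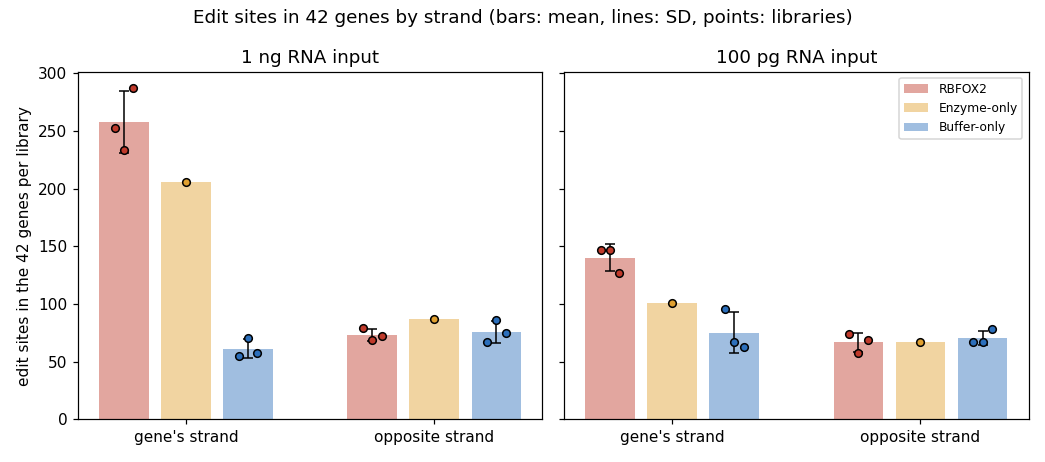
Edit sites in the spans of the 42 genes on the gene's strand and on the opposite strand (y axis, sites per library) at 1 ng and 100 pg. Bars are means, lines the SD over 3 libraries and points single libraries; at 1 ng the gene's strand held 258 sites on average in RBFOX2 and 61.3 in Buffer-only, while on the opposite strand the groups overlapped at both inputs.

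Sites near UGCAUG took a larger share in RBFOX2 than in either control at both inputs. A site counted as near when the centre of a UGCAUG on its own strand lay within 50 nt, and overlapping motifs were counted separately. At 1 ng 28, 20 and 28 sites of the RBFOX2 libraries were near, which is 11.1%, 8.55% and 9.76% of the sites of each library. In Enzyme-only 7 sites (3.40%) and in Buffer-only 2, 4 and 1 sites (3.64%, 5.63% and 1.72%) were near. The 3 RBFOX2 shares exceeded all 4 control shares, a separation that was lost without ENAH, and the 95% Wilson intervals of single libraries overlapped, for example 7.77% to 15.5% in RBFOX2 replicate 1 and 2.21% to 13.6% in Buffer-only replicate 2. In all other genes the shares were 5.86% to 6.18% in RBFOX2, 2.86% in Enzyme-only and 2.29% to 2.57% in Buffer-only.

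The shares of the 42 genes at 100 pg were 7.48%, 6.80% and 10.2% in RBFOX2, 1.98% in Enzyme-only and 3.12%, 2.99% and 1.59% in Buffer-only. RBFOX2 libraries were again above all control libraries, on 10 to 13 near sites each. Other genes stood at 4.47% to 4.53%, 2.78% and 2.58% to 2.74%. The difference between the RBFOX2 and Buffer-only means was 6.13 percentage points at 1 ng and 5.61 at 100 pg. Without ENAH, left out after its values were seen, the difference at 1 ng was 3.04 points and the groups overlapped, the RBFOX2 shares being 6.83%, 6.31% and 8.43% and those of Buffer-only 4.17%, 6.35% and 1.92%. At 100 pg without ENAH the RBFOX2 shares, 5.65% to 7.46%, remained above the Buffer-only shares of 1.69% to 3.33%.

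**Figure D2:**
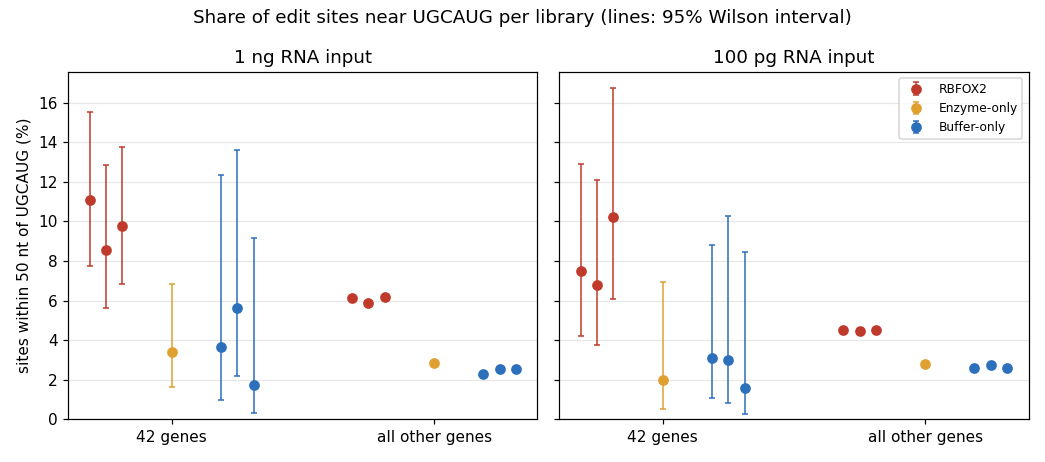
Percent of sites with a UGCAUG centre at most 50 nt away (y axis) in each library, for the 42 genes (points with 95% Wilson intervals) and for all other genes. The RBFOX2 points lie at 8.55% to 11.1% at 1 ng and 6.80% to 10.2% at 100 pg, above the Enzyme-only and Buffer-only points of the same input.

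The motif itself is spread widely over these 3′UTRs. A UGCAUG was found in the 3′UTR of 30 of the 42 genes, 62 motifs in all, and 3.33% of the cytosines in the 3′UTRs lay within 50 nt of one, beside 2.92% over 19981 genes with a 3′UTR. Of the 3′UTR sites of RBFOX2 libraries at 1 ng, 63 of 531 (11.9%) were near a motif. In Enzyme-only this was 6 of 122 (4.92%) and in Buffer-only 5 of 90 (5.56%). For 100 pg the shares were 28 of 247 (11.3%), 2 of 59 (3.39%) and 4 of 103 (3.88%). Near sites came from 17 of the 42 genes in RBFOX2 at 1 ng and from 13 at 100 pg, and ENAH alone held 28 of the 76 near sites at 1 ng.

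**Figure D3:**
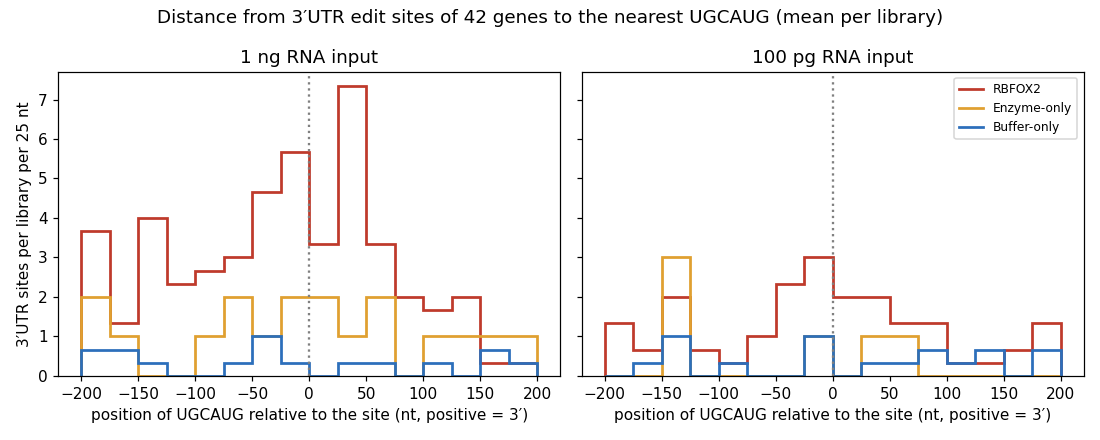
3′UTR edit sites of the 42 genes by distance to the nearest UGCAUG (x axis, nt in 25-nt bins, positive where the motif lies 3′ of the site; y axis, mean number of sites per library). Lines stand for RBFOX2, Enzyme-only and Buffer-only. Within 50 nt of the motif at 1 ng lay 63 of 531 sites (11.9%) over 3 RBFOX2 libraries and 5 of 90 (5.56%) over 3 Buffer-only libraries. ENAH held 25 of the 63 and 0 of the 5.

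Sites in these genes lay mostly in 3′UTRs in the libraries that received the enzyme. The 3′UTR share at 1 ng was 68.4%, 61.1% and 74.9% in RBFOX2, 59.2% in Enzyme-only and 43.6%, 52.1% and 50% in Buffer-only. At 100 pg it was 54.4%, 54.4% and 68.5% in RBFOX2, 58.4% in Enzyme-only and 46.9%, 38.8% and 50.8% in Buffer-only. RBFOX2 and Buffer-only did not overlap at either input, and Enzyme-only lay within or just under the RBFOX2 range. In other genes at 1 ng the 3′UTR share was lower, at 50.5% to 51.3% in RBFOX2 and 36.6% to 38.0% in Buffer-only.

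The base before the edited cytosine was A or T in 82.2%, 82.9% and 81.9% of the sites of RBFOX2 at 1 ng, in 76.2% in Enzyme-only, and in 45.5%, 47.9% and 37.9% in Buffer-only. At 100 pg the shares were 79.6%, 70.7% and 68.5%, then 64.4%, then 51.0%, 32.8% and 50.8%. The context that APOBEC1 prefers was thus more frequent wherever the enzyme was present, with or without the antibody. Edited fractions were low in all groups. The median at 1 ng was 3.23% to 3.64% of the reads at a site in RBFOX2, 4.0% in Enzyme-only and 3.51% to 4.77% in Buffer-only, at a median coverage of 33 to 53 reads. In other genes the medians at 1 ng were 6.25% to 7.14%, at a median coverage of 20 to 22 reads.

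Actin and its regulators held the most sites of the 7 families into which the genes were grouped. The 10 genes summed to 101, 73 and 80 sites in RBFOX2 at 1 ng, 60 in Enzyme-only and 14, 17 and 17 in Buffer-only, a ratio of 5.29 between RBFOX2 and Buffer-only. With 100 pg the ratio was 2.35. Most of these sites lay in regulators of filament growth and few in the actins.

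ENAH, an elongator of actin filaments at the leading edge and in filopodia, was the gene with the most sites of all 42. It had 48, 28 and 38 sites in RBFOX2 at 1 ng, 32 in Enzyme-only and 7, 8 and 6 in Buffer-only. At 100 pg ENAH had 13, 23 and 12 sites in RBFOX2, 8 in Enzyme-only and 6, 5 and 4 in Buffer-only. RBFOX2 exceeded Buffer-only in every library at both inputs, and at 1 ng Enzyme-only lay inside the RBFOX2 range. The ratio of summed sites was 5.43 (exact 95% counting interval 3.39 to 9.11) at 1 ng and 3.20 (1.76 to 6.15) at 100 pg. These and all other intervals cover counting error only.

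RBFOX2 and Enzyme-only libraries had unlike numbers of ENAH sites near UGCAUG, a difference that was not tested. Within 50 nt of a motif lay 14, 7 and 7 sites in RBFOX2 at 1 ng, 1 site in Enzyme-only and 0 in each Buffer-only library. These were 28 of 114 sites in RBFOX2 (24.6%, 95% Wilson interval 17.6% to 33.2%), 1 of 32 in Enzyme-only (3.12%, 0.554% to 15.7%) and 0 of 21 in Buffer-only, which allows a share of up to 14.3%. At 100 pg there were 1, 3 and 5 near sites in RBFOX2 and 0 in the 4 control libraries.

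The 3′UTR of ENAH, 11096 nt long over its transcripts, holds 8 motifs, and 5.04% of its cytosines lie within 50 nt of one. Of its 3′UTR sites in RBFOX2 at 1 ng, 25 of 72 (34.7%) were near, against 0 of 13 in Enzyme-only and 0 of 10 in Buffer-only. The 3 motifs printed above lie close together, with 211 nt between the outer centres. Within 50 nt of them the RBFOX2 libraries held 20 sites at 12 positions at 1 ng and 8 sites at 8 positions at 100 pg, with all 3 libraries taking part at each input. No control library of either input had a site there. Since these motifs were picked for their number of RBFOX2 sites, this contrast is partly set by the choice. Introns of ENAH held 9, 14 and 9 sites in RBFOX2 at 1 ng and 16 in Enzyme-only, so the Enzyme-only value was above all RBFOX2 values.

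Single positions in the ENAH stretch recurred between libraries. The cytosine at chr1:225496711, with the motif centre of the first printed stretch at −29.5 nt (minus for the 5′ side of the site), was edited in all 3 RBFOX2 libraries at 1 ng, in 2 of 61 reads (3.28%), 3 of 97 (3.09%) and 5 of 99 (5.05%). At 100 pg it was a site in replicate 2 with 9 of 79 reads (11.4%). The cytosine at chr1:225496925, with the motif of the last ENAH stretch at −26.5 nt, was edited in 3 of 73, 3 of 83 and 1 of 69 reads at 1 ng and in 10 of 60 reads (16.7%) in replicate 2 at 100 pg. Both were picked as sites of all 3 RBFOX2 libraries and of no Buffer-only library at 1 ng. Neither was called in an Enzyme-only library, or in Buffer-only at 100 pg. Each rests on few edited reads.

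CAPZA2 encodes an alpha subunit of the capping protein that closes the barbed end of actin filaments. It had 19, 14 and 10 sites in RBFOX2 at 1 ng, 4 in Enzyme-only and 0, 0 and 1 in Buffer-only. At 100 pg CAPZA2 had 10, 5 and 4 sites in RBFOX2, 4 in Enzyme-only and 1, 0 and 0 in Buffer-only. Here every RBFOX2 library at 1 ng was above Enzyme-only as well as Buffer-only. Summed over libraries this was 43 sites against 1 at 1 ng, a ratio of 43.0 with an exact counting interval of 7.32 to 1737, and 19 against 1 at 100 pg, a ratio of 19 with an interval of 3.02 to 789.

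CAPZA2 was the 1 gene of the 42 that passed the test of site numbers per gene at 1 ng, which was edgeR's quasi-likelihood test over 2253 genes. The log2 difference was 3.82 (SE 0.87, adjusted p = 0.032). Over all genes tested, 1.29% were called higher in RBFOX2 and 0.577% lower. The call was lost when any 1 Buffer-only library was left out, with adjusted p = 0.193, 0.231 and 0.078 by edgeR. Of its RBFOX2 sites at 1 ng, 40 of 43 lay in the 3′UTR, including the stretch printed above, around which 8 RBFOX2 sites at 1 ng stood against 0 in Enzyme-only and Buffer-only. That stretch was chosen after its values were seen. At 1 ng 0 of the RBFOX2 sites of CAPZA2 lay within 50 nt of a UGCAUG. Its 3′UTR holds 3 motifs, and 4.88% of its cytosines lie near one. At 100 pg RBFOX2 and Enzyme-only had 1 near site each.

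CAPZA1, the other alpha subunit of capping protein, had 5, 7 and 8 sites in RBFOX2 at 1 ng, 6 in Enzyme-only and 3, 2 and 2 in Buffer-only. At 100 pg CAPZA1 had 8, 3 and 4 sites in RBFOX2, 10 in Enzyme-only and 2, 6 and 0 in Buffer-only, so that the groups overlapped. Its log2 difference at 1 ng was 0.16 (edgeR adjusted p = 0.928). The stretch of CAPZA1 printed above lies in coding sequence and held 3 RBFOX2 sites within 50 nt at each input and 1 Buffer-only site at 1 ng.

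The Arp2/3 complex, which starts branches on actin filaments, was represented by its actin-related subunits ACTR2 and ACTR3. ACTR2 had 21, 11 and 15 sites in RBFOX2 at 1 ng, 11 in Enzyme-only and 3, 2 and 4 in Buffer-only. At 100 pg ACTR2 had 2, 5 and 5 sites in RBFOX2, 5 in Enzyme-only and 4, 2 and 3 in Buffer-only. The gap to Buffer-only at 1 ng was not seen at 100 pg, where the groups overlapped. ACTR3 had 5, 7 and 7 sites in RBFOX2 at 1 ng, 5 in Enzyme-only and 0, 2 and 1 in Buffer-only, and 2, 1 and 2 against 1, 3 and 0 at 100 pg with 0 in Enzyme-only. Neither passed the edgeR test at 1 ng, with log2 differences of 1.02 (adjusted p = 0.292) for ACTR2 and 1.25 (adjusted p = 0.477) for ACTR3. DIAPH1, a formin that nucleates unbranched filaments, had 3, 5 and 2 sites against 1, 2 and 1.

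The actins and the proteins that handle actin monomers carried few sites, at deep coverage where a site was called. ACTB, cytoplasmic beta actin, had 8 sites over all 14 libraries, at a median coverage of 746 reads. ACTG1, gamma actin, had 7 sites, and CFL1, the filament severing protein cofilin, had 6 at a median coverage of 1078 reads. At 1 ng no RBFOX2 library had a site in ACTG1, CFL1 or PFN1. Reads of ACTB and ACTG1, near-identical copies, could be assigned to either, and the handling of such reads is not given in the sources used here.

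The 4 kinesins, motors that mostly move towards the plus end of microtubules, summed to 27, 28 and 47 sites in RBFOX2 at 1 ng, 26 in Enzyme-only and 9, 7 and 7 in Buffer-only, a ratio of 4.43. KIF5B, the heavy chain of conventional kinesin, held the most. It had 13, 12 and 18 sites in RBFOX2 at 1 ng, 11 in Enzyme-only and 2, 1 and 2 in Buffer-only, a ratio of 8.60 (exact counting interval 3.41 to 27.8). At 100 pg KIF5B had 12, 15 and 7 sites in RBFOX2, 0 in Enzyme-only and 3, 4 and 1 in Buffer-only, a ratio of 4.25 (1.93 to 10.6).

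KIF5B thus stood above Buffer-only in every library at both inputs. The log2 difference was 1.71 (SE 0.55) at 1 ng and 1.26 at 100 pg, with edgeR adjusted p = 0.101 and 0.365. In RBFOX2 at 1 ng 28 of its sites lay in the 3′UTR, 10 in coding sequence, 4 in the 5′UTR and 1 in an intron. Its Buffer-only sites at 1 ng were 4 in the 5′UTR and 1 in the 3′UTR. Around the KIF5B motif printed above, picked after its values were seen, there were 5 RBFOX2 sites at 1 ng, 2 at 100 pg and 0 in the controls.

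The other kinesins had fewer sites. KIF2A, a kinesin that takes microtubules apart, had 5, 9 and 13 sites in RBFOX2 at 1 ng against 5, 1 and 4 in Buffer-only. KIF3A, a subunit of the kinesin of ciliary transport, had 3, 5 and 8 against 1, 1 and 0, with 6 in Enzyme-only. At 100 pg KIF3A had 1, 7 and 0 against 3, 2 and 0, with 0 in Enzyme-only. KIF1B, a carrier of mitochondria and synaptic vesicle precursors, had 6, 2 and 8 against 1, 4 and 1 at 1 ng. Only KIF3A was free of overlap with Buffer-only among these at 1 ng.

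Dynein, the motor towards the minus end, and its activator dynactin were represented by 4 genes with 25, 16 and 15 sites in RBFOX2 at 1 ng, 14 in Enzyme-only and 3, 6 and 5 in Buffer-only. The ratio was 4.0 at 1 ng and 3.42 at 100 pg. DYNC1I2, an intermediate chain that links dynein to cargo, had 10, 9 and 3 sites in RBFOX2 at 1 ng, 8 in Enzyme-only and 1, 1 and 2 in Buffer-only. At 100 pg DYNC1I2 had 13, 3 and 1 against 1, 1 and 0, with 3 in Enzyme-only. Most of its 100 pg sites came from 1 library, and at 1 ng its log2 difference of 1.07 did not pass (edgeR adjusted p = 0.513). DYNC1H1, the heavy chain, had 8, 4 and 7 against 1, 2 and 1 at 1 ng. DCTN4, a subunit of dynactin, had 7, 3 and 4 against 0, 2 and 1. The light chain gene DYNLL1 had 0, 0 and 1 against 1, 1 and 1.

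The 8 genes of microtubule proteins summed to 29, 38 and 49 sites in RBFOX2 at 1 ng, 30 in Enzyme-only and 8, 12 and 11 in Buffer-only, a ratio of 3.74. At 100 pg the groups overlapped, with 26, 22 and 25 sites against 33, 15 and 17 and a ratio of 1.12. Most sites lay in 2 microtubule-associated proteins that stabilise the polymer.

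MAP1B, prominent in growing axons, had 15, 17 and 15 sites in RBFOX2 at 1 ng, 10 in Enzyme-only and 3, 2 and 4 in Buffer-only. At 100 pg MAP1B had 4, 7 and 5 sites in RBFOX2, 2 in Enzyme-only and 9, 1 and 5 in Buffer-only. RBFOX2 exceeded Buffer-only in every library at 1 ng, but the groups overlapped at 100 pg, where the ratio was 1.07 (exact counting interval 0.49 to 2.32) beside 5.22 (2.53 to 12.1). The log2 difference was 1.02 at 1 ng (edgeR adjusted p = 0.252) and −0.69 at 100 pg (edgeR adjusted p = 0.711). Buffer-only replicate 1 carried most of the 100 pg background, and without it the log2 difference was 0.19. Near a motif MAP1B had 2, 3 and 6 sites in RBFOX2 at 1 ng, 3 in Enzyme-only and 0 in Buffer-only. The share near the motif was 23.4% in RBFOX2 and 30% in Enzyme-only.

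MAP4, a microtubule-associated protein of most tissues, had 4, 11 and 15 sites in RBFOX2 at 1 ng, 9 in Enzyme-only and 2, 1 and 5 in Buffer-only. At 100 pg MAP4 had 11, 7 and 5 against 9, 5 and 5, with 3 in Enzyme-only. The groups overlapped at both inputs. Its log2 difference at 1 ng was 0.54 (edgeR adjusted p = 0.719).

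The tubulins carried few sites, and those of near-identical copies (TUBA1A, TUBA1B and TUBA1C, or TUBB, TUBB2A and TUBB4B) are uncertain in their gene. TUBA1B, an alpha tubulin, had 2, 3 and 4 sites in RBFOX2 at 1 ng, 5 in Enzyme-only and 0, 3 and 0 in Buffer-only. Its 100 pg values were 3, 4 and 4 against 5, 4 and 1, and Enzyme-only had 3. TUBA1C, another alpha tubulin, had 1, 5 and 6 sites against 2, 3 and 1 at 1 ng. Its 100 pg values were 2, 2 and 5 against 5, 3 and 5, and Enzyme-only had 3 at each input. TUBA1C was the 1 tested gene of the set with a log2 difference below 0 at 1 ng, at −0.34. Of the 19 tested, 18 lay above 0 (94.7%), beside 57.9% of all genes tested. Only 7 of the 19 had a Buffer-only mean of at least 3 sites, and the others had to be high in RBFOX2 to be tested. TUBA1A, the main alpha tubulin of young neurons, had 3, 2 and 5 against 1, 1 and 0. Of the beta tubulins, TUBB2A had 4, 0 and 4 against 0, 0 and 1, and TUBB and TUBB4B had no site in any RBFOX2 library at 1 ng.

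A single cytosine of TUBA1C, at chr12:49272726, was a site in 13 of the 14 libraries, with and without enzyme. It was edited in 45.7% to 67.1% of reads in the libraries where it was called. A cluster at this place was called in all 3 Buffer-only libraries at 1 ng and is 1 of the clusters that the removal of Buffer-only clusters took from the confident list.

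The 8 myosin and tropomyosin genes summed to 25, 29 and 38 sites in RBFOX2 at 1 ng, 23 in Enzyme-only and 10, 12 and 7 in Buffer-only. The ratio was 3.17 at 1 ng and 1.77 at 100 pg. MYH10, the heavy chain of non-muscle myosin IIB, held the most, with 5, 13 and 13 sites in RBFOX2 at 1 ng, 8 in Enzyme-only and 4, 4 and 3 in Buffer-only. At 100 pg MYH10 had 2, 7 and 6 against 5, 5 and 6, with 4 in Enzyme-only. The 100 pg groups overlapped, and the log2 difference at 1 ng was 0.14 (edgeR adjusted p = 0.928). MYH9, the heavy chain of non-muscle myosin IIA, had 3, 3 and 4 against 2, 3 and 0.

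The regulatory light chains that switch non-muscle myosin II on had few sites, and their 3′UTRs are short. MYL12B had 6, 3 and 5 sites in RBFOX2 at 1 ng, 1 in Enzyme-only and 1, 0 and 0 in Buffer-only. At 100 pg MYL12B had 4, 3 and 5 against 1, 0 and 0, with 0 in Enzyme-only. MYL12A had 4, 2 and 7 in RBFOX2 at 1 ng, 0 in Enzyme-only and 1, 1 and 0 in Buffer-only, and at 100 pg 4, 1 and 0 against 0, 0 and 0 with 1 in Enzyme-only. Per kb of 3′UTR and library, the mean at 1 ng was 5.69 sites in RBFOX2 and 0.63 in Buffer-only for MYL12B and 5.19 and 0 for MYL12A, beside 2.16 and 0.30 for ENAH and 3.70 and 0.13 for KIF5B. The RBFOX2 values rest on 9 sites in 527 nt for MYL12B and 5 in 321 nt for MYL12A. Such density was not particular to them, as TUBB2A had 6 RBFOX2 sites at 1 ng in a 3′UTR of 200 nt. MYL12A and MYL12B are near-identical copies, and reads may be split between them.

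MYL12B had sites near the motif in every RBFOX2 library of both inputs. In the 3′UTR of MYL12B 36% of cytosines lie within 50 nt of a UGCAUG, beside 3.33% over the 42 genes. At 1 ng near sites numbered 1, 2 and 3 in RBFOX2, 0 in Enzyme-only and 1, 0 and 0 in Buffer-only. The 100 pg RBFOX2 libraries had 2 near sites each and the controls 0. The cytosine at chr18:3278031, inside the printed stretch with the motif centre at −6.5 nt, was edited in 6 of 199 (3.02%) and 5 of 203 reads (2.46%) in a pair of RBFOX2 libraries at 1 ng, and in 19 of 212 (8.96%) and 13 of 245 (5.31%) at 100 pg. Tropomyosins, which line actin filaments, overlapped between the groups in TPM1, with 1, 0 and 2 sites against 1, 0 and 0 at 1 ng. TPM3 had 2, 4 and 2 sites against 1, 1 and 1, and TPM4 had 3, 4 and 4 against 0, 3 and 2.

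Septins are GTP-binding proteins that form rings and collars at the membrane. The 4 genes summed to 35, 33 and 46 sites in RBFOX2 at 1 ng, 36 in Enzyme-only and 8, 12 and 7 in Buffer-only, and the ratio was 4.22 at 1 ng and 3.23 at 100 pg. SEPTIN2 had 11, 12 and 25 sites in RBFOX2 at 1 ng, 14 in Enzyme-only and 5, 5 and 2 in Buffer-only. At 100 pg SEPTIN2 had 2, 3 and 5 against 1, 0 and 3, with 4 in Enzyme-only. SEPTIN11 had 19, 15 and 13 in RBFOX2 at 1 ng, 12 in Enzyme-only and 0, 5 and 4 in Buffer-only. At 100 pg SEPTIN11 had 4, 4 and 4 against 4, 0 and 1, with 0 in Enzyme-only.

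Both stood above Buffer-only in every library at 1 ng and overlapped it at 100 pg. By edgeR the log2 differences at 1 ng were 0.63 (adjusted p = 0.559) for SEPTIN2 and 1.02 (adjusted p = 0.354) for SEPTIN11. SEPTIN11 had 3, 2 and 3 near-motif sites in RBFOX2 and 3 in Enzyme-only at 1 ng, so its sites near the motif were also found without the antibody. SEPTIN7, the core subunit of septin filaments, had 5, 6 and 8 sites against 1, 1 and 1 at 1 ng, with 9 in Enzyme-only. SEPTIN9 had no site in RBFOX2 at 1 ng.

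The spectrins, the linker MACF1 and the intermediate filament gene VIM summed to 11, 17 and 12 sites in RBFOX2 at 1 ng, 17 in Enzyme-only and 3, 5 and 4 in Buffer-only, a ratio of 3.33. The ratio at 100 pg was 1.1. MACF1, a crosslinker of actin and microtubules, had 4, 8 and 6 sites in RBFOX2 at 1 ng, 1 in Enzyme-only and 1, 2 and 1 in Buffer-only, and 4, 2 and 4 against 5, 4 and 3 at 100 pg with 3 in Enzyme-only. Its log2 difference at 1 ng was 0.79 (edgeR adjusted p = 0.634). SPTBN1, beta spectrin, had 3, 6 and 5 sites in RBFOX2 and 9 in Enzyme-only against 2, 0 and 2. SPTAN1, alpha spectrin, had 4, 0 and 0 against 0, 2 and 1, and VIM 0, 3 and 1 against 0, 1 and 0 with 5 in Enzyme-only.

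**Figure D4:**
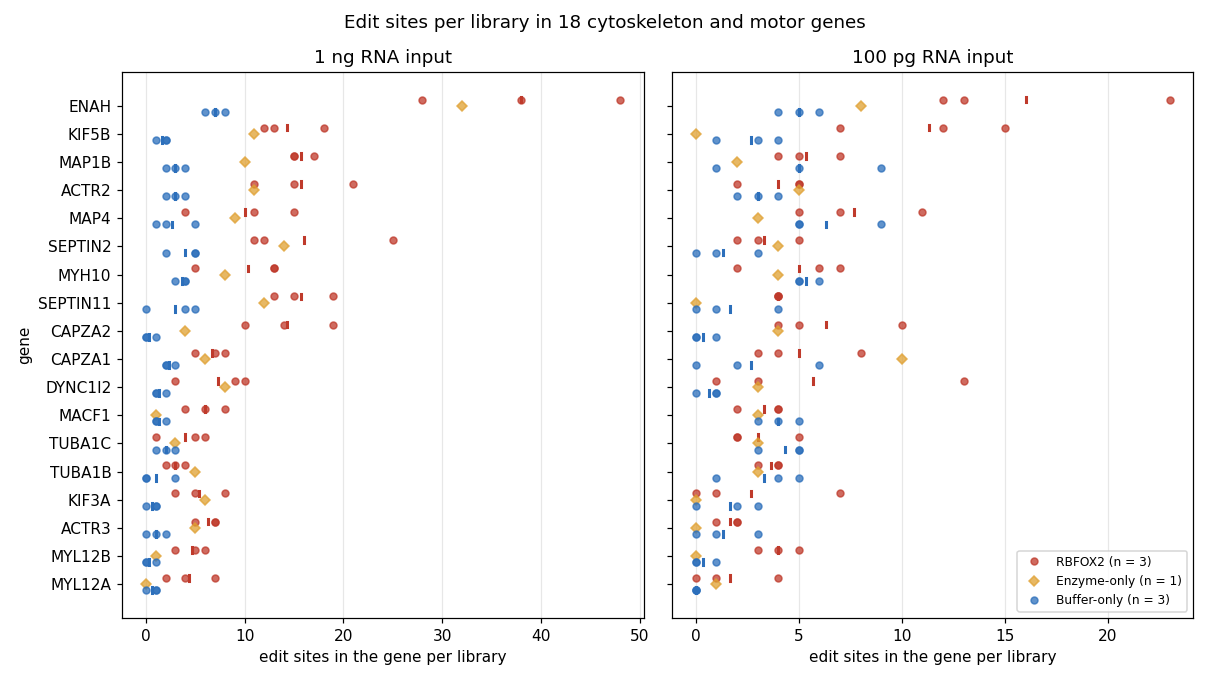
Edit sites per library (x axis, on a different scale in each panel) in the 18 genes described with the value of every library, at 1 ng and 100 pg. Dots are libraries, diamonds the single Enzyme-only library and short vertical lines group means; at 1 ng the 3 RBFOX2 dots of ENAH (28 to 48) and CAPZA2 (10 to 19) lie above the Buffer-only dots (6 to 8 and 0 to 1).

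In the edgeR test at 1 ng 19 of the 42 genes passed the filter on low site numbers, 12 of them with a Buffer-only mean below 3 sites, so these had to be high in RBFOX2 to be tested at all. CAPZA2 was called higher, and 5 of the 19 had an unadjusted p under 0.05 (26.3%), beside 385 of all 2253 genes (17.1%). ENAH had a log2 difference of 1.08 (SE 0.35, edgeR adjusted p = 0.101). TMM scaling takes the typical gene as unchanged and thereby removes a rise shared by most genes. The median log2 difference over all genes tested was 0.22 with TMM and 1.51 without scaling. Without scaling 920 genes were called higher (40.8%) and 5 lower (0.222%), in place of 29 and 13, and 15 of the 19 cytoskeletal genes were called higher.

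At 100 pg 12 of the genes were tested and 0 were called by edgeR, beside 0.13% of all 770 genes called higher. At an unadjusted p under 0.05 there were 2 of the 12 (16.7%), beside 13% of all genes tested, and DESeq2 also called 0. These 2 were CAPZA2 and KIF5B, with Buffer-only means of 0.33 and 2.67 sites, so both had to be high in RBFOX2 to be tested. Of the 12, 8 had a Buffer-only mean of at least 3 sites. CAPZA2 had a log2 difference of 3.13 (SE 1.06, edgeR adjusted p = 0.154) and ENAH 0.87 (edgeR adjusted p = 0.390). Only 5 of the 12 had a log2 difference above 0 (41.7%), beside 54.3% of all genes tested. The median was −0.44 in the 12 and 0.095 over all genes tested. Without scaling CAPZA2, ENAH and KIF5B were called, at log2 differences of 3.82, 1.65 and 2.04, where 12.3% of all genes were called higher.

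Raw site numbers can also be read by whether the 3 RBFOX2 libraries all exceed the 3 Buffer-only libraries. Among genes with at least 5 sites over the 6 libraries at 1 ng this held for 21 of 32 of the cytoskeletal genes (65.6%), beside 27.7% of all such genes. The 32 had a median of 22 sites over the 6 libraries and all such genes a median of 11, so the genes compared differ in how many sites they have. At 100 pg it held for 6 of 36 (16.7%), which were CAPZA2, ENAH, KIF5B, MYL12B, SEPTIN7 and TPM4, beside 9.24%. The reverse order was found in 0 of the 32 at 1 ng, beside 0.338% of all genes, and held for 0.73% of all genes at 100 pg.

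Against the single Enzyme-only library the genes were less apart. At 1 ng all 3 RBFOX2 libraries exceeded it in 9 of 32 genes (28.1%), beside 22.4% of all genes with at least 5 sites over the 4 libraries. These were CAPZA2, DYNC1H1, KIF5B, MACF1, MAP1B, MYL12A, MYL12B, SEPTIN11 and TUBA1A. All 3 fell below it in 6 of 32 (18.8%), beside 17.3% of all genes, namely SEPTIN7, SPTBN1, TPM3, TPM4, TUBA1B and VIM. At 100 pg the numbers were 9 of 35 above (25.7%, beside 19%) and 3 of 35 below (8.57%, beside 16.3%). KIF5B, MAP1B, MYL12B and SEPTIN11 were above at both inputs, but the share of all genes above at both inputs was not counted. With 1 library per input, these counts are a description without a test.

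Between the inputs the summed RBFOX2 sites of the 42 genes were fewer at 100 pg, while the Buffer-only mean was 61.3 ± 8.50 (SD, n = 3) at 1 ng and 75.3 ± 18 (SD, n = 3) at 100 pg. Read depth is not given in these files, and its part in the difference was not tested. Of 2174 genes tested by edgeR 0% were called. Of the 42 genes 23 were tested, 2 had an unadjusted p under 0.05 (8.70%), beside 9.34% of all genes, and DESeq2 called 0. The log2 difference of 1 ng minus 100 pg was 1.34 for SEPTIN2 (SE 0.57, edgeR adjusted p = 0.486), 1.06 for SEPTIN11 (edgeR adjusted p = 0.531), 1.06 for ACTR2 (edgeR adjusted p = 0.541), 0.36 for ENAH, 0.29 for CAPZA2 and −0.55 for KIF5B. In raw numbers all 3 libraries at 1 ng exceeded all 3 at 100 pg in 8 of 37 genes (21.6%), beside 17.3% of all genes, and the reverse was seen in 0.66% of all genes. Without scaling 2.62% of all genes and, among the 42, SEPTIN11 were called higher at 1 ng (log2 difference 1.94, edgeR adjusted p = 0.042). Whether the RBFOX2 effect itself differed between inputs was tested as an interaction in 20 of the genes. By edgeR 0 of the 20 were called, beside 0 of all 1976 genes tested. Of the 20, MAP1B alone had an unadjusted p under 0.05 (log2 difference of the effects 1.67, edgeR adjusted p = 0.895). DESeq2 was not run for the interaction.

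Few positions recurred from library to library. At 1 ng the RBFOX2 libraries had sites at 729 positions of the 42 genes, of which 687 were found in 1 library, 39 in 2 and 3 in all 3. Of these 42 shared positions, 38 were absent from Buffer-only, and 2 of the 38 were also in Enzyme-only. The Buffer-only libraries had 181 positions, 2 of them in more than 1 library. At 100 pg 401 of 411 RBFOX2 positions were found in 1 library and 10 in 2.

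Clusters span many bases and the confident lists keep them by their overlap between libraries, so their recurrence cannot be set against that of positions. The deposited confident list at 1 ng, built from clusters of the 3 RBFOX2 libraries with the clusters of the confident Buffer-only list removed, held 10 clusters in these genes. They lay in ENAH, KIF5B, TUBA1B, MYL12A, ACTR2, ACTR3, SEPTIN2, MAP1B, KIF3A and CAPZA2, 8 of them in 3′UTRs and the clusters of MYL12A and KIF3A in coding sequence. A UGCAUG lay within 50 nt of 3 of the 10, those of ENAH, MYL12A and MAP1B, beside 22.8% of the 776 clusters of the list. Overlap of clusters did not require shared positions. Inside the intervals of ACTR3 and KIF3A, only replicate 3 of the RBFOX2 libraries at 1 ng had a site. The list is not free of places called in single control libraries. The MYL12A cluster was also called in 2 Buffer-only libraries at 1 ng and that of ACTR3 in 1, and those of TUBA1B, SEPTIN2 and KIF3A were also called in Enzyme-only. The clusters of ENAH, KIF5B, ACTR2, MAP1B and CAPZA2 were called in no control library at 1 ng. The cluster of ENAH at chr1:225496601-225496780 was called in all 3 RBFOX2 libraries at 1 ng and in 2 at 100 pg. The cluster of KIF5B at chr10:32009436-32009615 was called in 3 RBFOX2 libraries at each input and in 1 Buffer-only library at 100 pg.

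At 100 pg the list held 3 clusters in these genes, in CAPZA1, KIF5B and MYL12B, and a motif lay within 50 nt of those of CAPZA1 and MYL12B. Over that list of 214 clusters the share with a motif was 15.4%. The cluster of CAPZA1 at chr1:112659023-112659067 overlapped clusters of 2 RBFOX2 libraries at 100 pg, and of 1 RBFOX2 and 1 Buffer-only library at 1 ng. The cluster of KIF5B was the place shared by the lists of both inputs. The cluster of MYL12B at chr18:3278006-3278065 was called in 3 RBFOX2 libraries at 100 pg, in 2 at 1 ng and in 1 Buffer-only library at 1 ng.

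Other genes of the cytoskeleton showed the same direction in their sums. Of 131 such genes outside the set 128 had a site, and they summed to 480 to 554 sites in RBFOX2 at 1 ng, 392 in Enzyme-only and 119 to 180 in Buffer-only. By edgeR 43 were tested at 1 ng and 0 were called. ARPC5, another subunit of the Arp2/3 complex, chosen after its values were seen, had 11, 9 and 19 sites against 2, 2 and 0, with 6 in Enzyme-only (log2 difference 1.87, edgeR adjusted p = 0.139). Among 26 genes that mark muscle, epithelial, blood, liver, endothelial and nerve cells, 20 had no site in any library. The muscle actins and the keratin genes KRT5 and KRT14 were among them. KRT8 and KRT18, which belong to the 131 genes above, had 20 and 18 sites over the 14 libraries. The other 6 marker genes summed to 12 to 17 sites in RBFOX2 at 1 ng, 3 in Enzyme-only and 2 to 3 in Buffer-only. Most of the RBFOX2 sites lay in NEFM, a neurofilament subunit. Over the 14 libraries NEFM had 51 sites, INA 17 and the muscle gene TTN 16.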

How the data were processed

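Short-read RNA sequencing of 14 libraries of HEK293T cells gave C-to-U edits. Libraries were grouped by the sample labels, 3 RBFOX2, 1 Enzyme-only and 3 Buffer-only at each of 1 ng and 100 pg. The authors trimmed adapters with cutadapt, removed repeat reads, mapped the rest to hg38 with STAR (version 2.4.0 per the submitters' processing notes), called sites with SAILOR, filtered them on score and edit fraction, and called clusters with FLARE. The deposited site files give counts of edited and of all reads, an edit fraction and a score. Deposited clusters carry a score, read counts, an edit fraction and a signal, which is their mean depth. Read depth per library is not given in these files; the number of sites per library is given in the text, and Wilson intervals at 95% cover counting error only.

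Sites were assigned on their own strand to the spans of Gencode 44, later than the annotation of the authors, with 3′UTR given precedence over 5′UTR, then coding sequence, then exons of noncoding transcripts, then introns. Distances to UGCAUG used hg38 (pysam 0.24.0). Site numbers per gene were tested over all genes with edgeR 4.0.16 (R 4.3.3; TMM, filterByExpr with a minimum count of 3 and a total of 5, quasi-likelihood test, Benjamini-Hochberg at 0.05), with DESeq2 1.42.0 as an alternative, and the edgeR step was tested on simulated data. Alternatives also varied scaling, filter, unit (clusters), region, coverage of at least 10, score of at least 0.9, motif window of 25 or 100 nt, and the libraries. Scaling by opposite-strand sites, assignment of each site to 1 gene and leaving out ENAH were added after the data were seen. The 42 genes, their families, the other lists and the tests were chosen with earlier results of these data known. Named with every library are genes called, the 10 with most sites, the leading gene of each family and those with a confident cluster; the other values and the printed stretches were chosen after their values were seen. Python 3.11.15, pandas 2.3.3, numpy 2.4.6, scipy 1.17.1 and matplotlib 3.10.9 were used.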

Additional observations from a re-analysis of the deposited data

How the results depend on the processing

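The number of the 42 genes called higher at 1 ng was 1 of 19 tested by edgeR (all genes 29 of 2253). It was 0 of 1 with edgeR's default filter (13 of 101), 0 of 17 on clusters (3 of 1744) and 0 of 16 on exonic sites (0 of 1377). At a coverage of at least 10 it was 0 of 15 (12 of 1566), and at a score of at least 0.9 it was 0 of 7 (0 of 603). It was 2 with no filter (91 of 13858), 15 with no scaling (920 of 2253) and 16 with scaling by opposite-strand sites (1048 of 2253). When 1 library was left out it was 0 to 2 (all genes 0% to 4.97%). DESeq2 called 0, but gave 14 of the 19 genes, CAPZA2 included, no adjusted p. At 100 pg it was 3 in place of 0 with no scaling (all genes 95 of 770) and with opposite-strand scaling (109 of 770), and between inputs 1 with no scaling (57 of 2174) and 4 with opposite-strand scaling (132 of 2174). Left-out libraries kept both at 0. The log2 difference of CAPZA2 at 1 ng was 3.26 to 6.50 over 15 alternatives with an adjusted p by edgeR, which was 0.00018 to 0.231 and passed in 8.

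The labels give the groups the same replicate numbers. The deviations of libraries with one number from their group means had correlations of −0.02 to 0.03 over 3514 genes. This gave no sign of pairing, but cannot exclude it, because with few sites per gene and library counting error alone keeps such correlations low. With the replicate block 0 genes of the set were called in each comparison.

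The ratio of summed sites at 1 ng was 3.24 on clusters and 3.97 to 4.57 without 1 library. At 100 pg it was 2.64 at a score of at least 0.9 and 1.72 to 2.16 without 1 library. The difference in the share near UGCAUG at 1 ng was 9.01 points at a score of at least 0.9, 3.17 and 9.85 for windows of 25 and 100 nt, 3.04 without ENAH and 5.16 to 7.11 without 1 library. At 100 pg it was 10.02 at that score, 3.59 for 25 nt, and 4.58 to 6.29. The 3′UTR difference was 16.2 to 23.1 points at 1 ng without 1 library, and at 100 pg 27.1 at a score of at least 0.9 and 8.93 to 16.3.

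Signs turned in a few genes near 0 on the log2 scale: at 1 ng MYH10 to −0.089 and CAPZA1 to −0.067 with library totals in place of TMM; at 100 pg MAP1B to 0.091 with no scaling, 0.062 with opposite-strand scaling, 0.039 at a score of at least 0.9 and 0.19 without Buffer-only replicate 1 (range −0.94 to 0.19 without 1 library); between inputs KIF5B to 0.34 and 0.32 with those scalings and CAPZA2 to −0.74 at a score of at least 0.9. The causes were not tested. At 100 pg the default filter left none of the 42 genes to test.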
